A study of Mus musculus with 36 samples.

Results

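The comparison described here is the step from 12.5 to 13.5 days post coitum (dpc) in the supporting cells of XX fetal mouse gonads. Its members are the 6 arrays whose labels name XX supporting cells at these stages, 3 per stage, out of 36 arrays in the series. These somatic cells give rise to granulosa cells in the ovary and to Sertoli cells in the testis. The series sorted such cells, and germ cells, from gonads of both sexes, also at 11.5 dpc. Each array measured the RNA of 1 sorted sample on Affymetrix Mouse Gene 1.0 ST chips.

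All XX supporting cells, including the 3 arrays at 11.5 dpc that are set beside the comparison, carried the reporter transgene Tg(Sry-EGFP)92Ei in CD-1 progeny, in which Sry regulatory sequence drives the green fluorescent protein. The XY supporting cells at 12.5 and 13.5 dpc, used for a second comparison, came from another line, Tg(Sox9-cre/ERT2)1Msan/J in C57BL/6 progeny. XY supporting cell arrays at 11.5 dpc, whose titles name Sry, entered the fit only for its estimate of spread. Gonads were pooled by sex, trypsinised and sorted by fluorescence. A sample is therefore whatever fluorescent cells the pool held. Nothing in the labels shows the 3 arrays per group to be separate litters or pools. Every p-value thus measures only the spread between arrays of a group, which may be technical. That spread was pooled over all 18 supporting cell arrays in 6 groups, of both sexes and both reporter lines.

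In the XX gonad the supporting lineage becomes pregranulosa cells under WNT4, RSPO1 and beta-catenin signalling and the transcription factor FOXL2, while SOX9 and AMH mark the Sertoli fate. Pregranulosa cells leave the cell cycle in the fetal ovary and surround germ cells that are entering meiosis. Thus the cell cycle, WNT, TGF-beta family and retinoic acid genes are the pathways usually followed over these days.

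Values are log2 levels, and a change is the 13.5 dpc mean minus the 12.5 dpc mean with its standard error (SE). The medians of the 6 arrays lay between 6.70 and 7.01, and arrays of 1 stage correlated at 0.978 to 0.990. The median change of all 19938 genes was -0.13, so most genes lay slightly lower at 13.5 dpc and a change is best read against that shift. The rows of the deposited table fell into a few interleaved sets with scales of their own, whose medians differed by up to 0.51 within 1 of the 6 arrays. Bringing these sets to a single scale, called row sets aligned below, also gave every set on every array the same median. The median change of -0.01 on that scale thus follows from the step itself. Centring whole arrays on their medians alone gave -0.02. Changes are as deposited unless the aligned value is named. All 6 arrays read Xist, which silences an X chromosome in XX cells, between 11.09 and 11.70. The 8 markers of XX supporting cells had array medians of 9.57 to 9.93 at 12.5 dpc and 9.39 to 9.77 at 13.5 dpc, while 7 markers of XY supporting cells stood at 6.66 to 6.93 and 6.77 to 7.04. Foxl2 itself read only 6.05 to 6.57, below the median of every array. Of 12 germ cell markers, the array medians were 5.52 to 6.63 and 5.77 to 6.64, against up to 11.22 on germ cell arrays, with the higher value of each stage on replicate 1. None of the members of the 9 marker lists passed the test in either direction, which 0.502% of all genes did. Array medians of the 9 endothelial markers were 6.17 to 6.28 and 6.00 to 6.03, and those of the 5 steroidogenic markers 5.76 to 6.24 and 5.53 to 5.60. Those of the 10 stromal markers were 6.76 to 7.14 and 6.76 to 7.04. Their part in the changes below was not tested.

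Between 12.5 and 13.5 dpc, 100 genes changed in XX supporting cells, or 0.502% of the 19938 tested, by limma's moderated test with a Benjamini-Hochberg adjusted p under 0.05. Of these, 25 genes rose (0.125%) and 75 fell (0.376%). The largest rise was that of Mgp, 3.83-fold, and the largest fall that of Sprr2d, 11.2-fold. In all 100 genes the 3 arrays of one stage lay above the 3 of the other, while over all genes 1.43% had every 13.5 dpc array above and 12.9% had every one below. The direction split depended on the scale. With row sets aligned 124 genes passed (0.622%), 69 of them risen (0.346%) and 55 fallen (0.276%), with arrays centred on their medians 47 rose and 38 fell, and after quantile normalisation 63 rose and 39 fell. Each of these settings also brings the arrays to a common level. The split moved the other way with array weights, where 7 genes rose and 73 fell. At an unadjusted p under 0.05 there were 2231 genes. There were 59 genes past the test on both scales, 24 of them risen (0.12%) and 35 fallen (0.176%), and the genes named below come from this set unless stated. The count and the split also moved with single arrays. Leaving out 12.5 dpc replicate 1, 2 or 3 gave 94, 48 or 154 genes. Of these, 39 rose and 55 fell, 15 rose and 33 fell, or 13 rose and 141 fell. Leaving out 13.5 dpc replicate 1, 2 or 3 gave 60, 32 or 66 genes. Here 8 rose and 52 fell, 11 rose and 21 fell, or 23 rose and 43 fell. With the 18 germ cell arrays also in the fit 20 genes passed. The named genes then lost were Fabp7, Gatm, Gstm6, Gstm7, Snora52, Cav1, Pde7b, Lclat1, Fbn2, Aldh1a1, Nfib, Adm, Utf1, Cd36, Slc30a5, Igf1, Igfbp2 and Spred2. When 1 of those arrays, XX germ cells at 12.5 dpc replicate 3, was left out of that fit, 108 genes passed. Of the genes named, only Lclat1 and Aldh1a1 were lost there (adjusted p 0.068 and 0.0613).

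**Figure D1:**
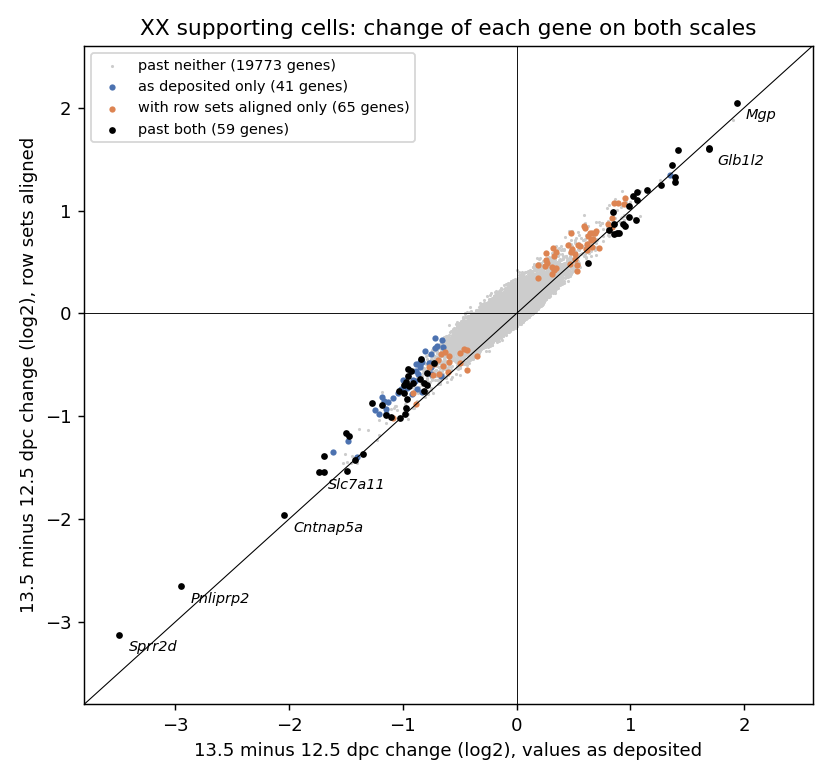
Change of each of 19938 genes from 12.5 to 13.5 dpc in XX supporting cells (log2), with values as deposited on the horizontal and row sets aligned on the vertical axis; black points passed the test on both scales, blue and orange points on one of them. The cloud lies off the diagonal, with a median of -0.13 on the deposited and -0.01 on the aligned scale, and Sprr2d, Pnliprp2, Cntnap5a and Mgp stand far from 0 on both axes.

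Of the named rises, Mgp, Thbs2 and Fbn2 encode proteins of the extracellular matrix and Cav1 one of the cell membrane. Mgp, a matrix protein that inhibits calcification and binds bone morphogenetic proteins, read 7.09, 6.18 and 6.44 in replicates 1 to 3 at 12.5 dpc and 9.02, 8.51 and 7.99 at 13.5 dpc. Every 13.5 dpc array was thus above every 12.5 dpc array, and the change was 1.94 (SE 0.26, adjusted p = 0.000428). Thbs2, a secreted glycoprotein that modulates cell and matrix contacts, read 8.0, 7.95 and 7.81 and then 9.38, 9.34 and 9.14. It had the smallest SE of the called rises named here, with the stages well apart, and it rose by 1.36 (SE 0.14, adjusted p = 1.22e-05). Fbn2, a fibrillin of elastic microfibrils, went from 9.73, 9.55 and 8.96 to 10.67, 10.49 and 10.05, a change of 0.99 (SE 0.19, adjusted p = 0.0134), which was no longer past the test without 13.5 dpc replicate 1 (adjusted p = 0.0761) or 13.5 dpc replicate 2 (0.0997). Cav1, the scaffold of caveolae, rose from 9.84, 8.93 and 9.03 to 10.43, 10.18 and 10.36, by 1.06 (SE 0.21, adjusted p = 0.0229). The call for Cav1 was lost without 12.5 dpc replicate 2 or 3 or any one of the 13.5 dpc arrays (adjusted p 0.0719 to 0.169). None of 23 basement membrane and interstitial matrix genes passed the test as deposited, against 0.502% of all genes, so that count says little. With row sets aligned 1 of them rose past the test. The median change of the list was -0.05, or 0.04 aligned. Fn1, fibronectin, changed by 0.31 (adjusted p = 0.59) and Lamb1, a laminin chain, by 0.20 (adjusted p = 0.67).

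The bases before the Thbs2 start are shown because its rise had the smallest SE and a promoter is listed for it. They come from RefSeq (GRCm38.p6, chr17:14694263-14694412, minus strand) and run 5′ to 3′ up to the base before the start. Capitals mark CCAAT, and TATAAA read from the opposite strand.
Thbs2: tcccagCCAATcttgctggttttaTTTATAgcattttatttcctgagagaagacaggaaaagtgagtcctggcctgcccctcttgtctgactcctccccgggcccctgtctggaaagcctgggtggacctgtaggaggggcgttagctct
Of the promoters of 15614 tested genes, 35.5% held CCAAT and 11.2% held TATAAA on either strand within 250 bases before the start. A match is a run of letters and not a shown site.

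Fabp7, Gatm and Aldh1a1, which bind or convert small metabolites, also rose. Fabp7, a fatty acid binding protein, read 6.99, 7.43 and 6.08 at 12.5 dpc and 9.01, 8.43 and 8.13 at 13.5 dpc, with no overlap, and rose by 1.69 (SE 0.28, adjusted p = 0.00377). Gatm, the enzyme of the first step of creatine synthesis, rose from 10.41, 9.81 and 10.18 to 11.85, 11.56 and 11.16, by 1.39 (SE 0.23, adjusted p = 0.00458). The calls for both were lost with array weights (0.0694 and 0.0889) and with the 18 germ cell arrays in the fit (0.371 and 0.661). Both passed when XX germ cells at 12.5 dpc replicate 3 were left out of the latter fit. Aldh1a1, an enzyme that makes retinoic acid, went from 10.03, 9.27 and 9.46 to 10.54, 10.41 and 10.39. The lowest 13.5 dpc array of Aldh1a1 was above the highest at 12.5 dpc, and the rise was 0.86 (SE 0.18, adjusted p = 0.0317). That call was lost without 12.5 dpc replicate 2 or 3 or any one of the 13.5 dpc arrays (adjusted p 0.0792 to 0.203). Aldh1a1 was the only called member of 18 retinoic acid genes, against 0.502% called over all genes, and the list's median change was -0.06. Crabp2, which carries retinoic acid to its receptors, changed by -1.07 (SE 0.31, adjusted p = 0.151), and Aldh1a2, the other main synthesis enzyme here, by 0.04.

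Neighbouring genes of a family rose together in 2 places. Glb1l2 and Glb1l3, which encode proteins like the lysosomal enzyme beta-galactosidase, lie next to each other on chromosome 9. Glb1l2 read 6.42, 6.05 and 6.66 and then 7.98, 7.87 and 8.34, a rise of 1.69 (SE 0.17, adjusted p = 6.52e-06). Glb1l3, which was dim, read 4.70, 4.74 and 4.48 and then 5.63, 6.10 and 5.35, a rise of 1.05 (SE 0.16, adjusted p = 0.00137). Glb1, the family's lysosomal enzyme, changed by -0.17 (adjusted p = 0.72). Gstm6 and Gstm7, mu class glutathione transferases that detoxify reactive compounds, lie in the Gstm cluster on chromosome 3. Gstm6 read 7.92, 8.39 and 6.39 at 12.5 dpc and 8.93, 9.03 and 9.01 at 13.5 dpc, so its spread lay in the earlier stage. It rose by 1.42 (SE 0.31, adjusted p = 0.0367), and the call was lost without 12.5 dpc replicate 3 or any one of the 13.5 dpc arrays (adjusted p 0.0669 to 0.179). Gstm7 rose by 1.05 (SE 0.20, adjusted p = 0.0148), lost without 12.5 dpc replicate 2 or 3 or 13.5 dpc replicate 1 or 2 (0.0507 to 0.114). Gstm1 changed by 0.84 (adjusted p = 0.108, or 0.033 with row sets aligned) and Gstm2 by 0.60 (adjusted p = 0.441), or 0.95 aligned (0.266). Gstm3, Gstm4 and Gstm5 changed by -0.34, 0.01 and 0.24 (adjusted p 0.503, 0.989 and 0.729), so not all measured members rose. Members of the Gstm family are alike in sequence, so probes may read more than 1 of them. These families were picked after their values were seen.

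Among the other named rises was 1 gene of the Sertoli list. Mro (maestro), whose transcript is known as male-enriched in the fetal gonad, read 7.37, 7.07 and 7.22 at 12.5 dpc and 8.88, 8.55 and 8.40 at 13.5 dpc, a rise of 1.39 (SE 0.20, adjusted p = 0.000825). It was the only called member of 19 measured Sertoli genes, against 0.502% called over all genes, and the list's median change was -0.10. Sox9, the driver of the Sertoli fate, read 8.70, 8.89 and 8.71 and then 8.54, 8.62 and 9.02, with overlapping arrays and a change of -0.05 (SE 0.17). The sign of that value turned with row sets aligned, to 0.29 (adjusted p = 0.485). Amh, the Sertoli hormone that removes the Müllerian ducts, stayed between 5.75 and 6.23 on all 6 arrays. In the XY line Mro read 9.92 to 10.13 at 12.5 dpc and 10.21 to 10.54 at 13.5 dpc, above every XX array. Pde7b, a phosphodiesterase that degrades cyclic AMP, rose by 1.02 (adjusted p = 0.0481), and Lclat1, a cardiolipin acyltransferase, by 0.99 (adjusted p = 0.0317). Crygb, a lens crystallin gene, rose by 1.27 (adjusted p = 0.0166) although 13.5 dpc replicate 2, at 6.19, was barely above the highest 12.5 dpc array at 6.14. Snora52, a small nucleolar RNA, rose by 1.14 (adjusted p = 0.0481). The calls were lost for Pde7b without 12.5 dpc replicate 2 or 3 or 13.5 dpc replicate 1 or 2 (0.087 to 0.304), and for Crygb without replicate 1 or 3 of either stage (0.0643 to 0.116). Lclat1 passed only without 12.5 dpc replicate 1, with 0.0671 to 0.218 in the other 5 fits that left out an array. Snora52 was lost in all 6 such fits (0.0672 to 0.248).

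**Figure D2:**
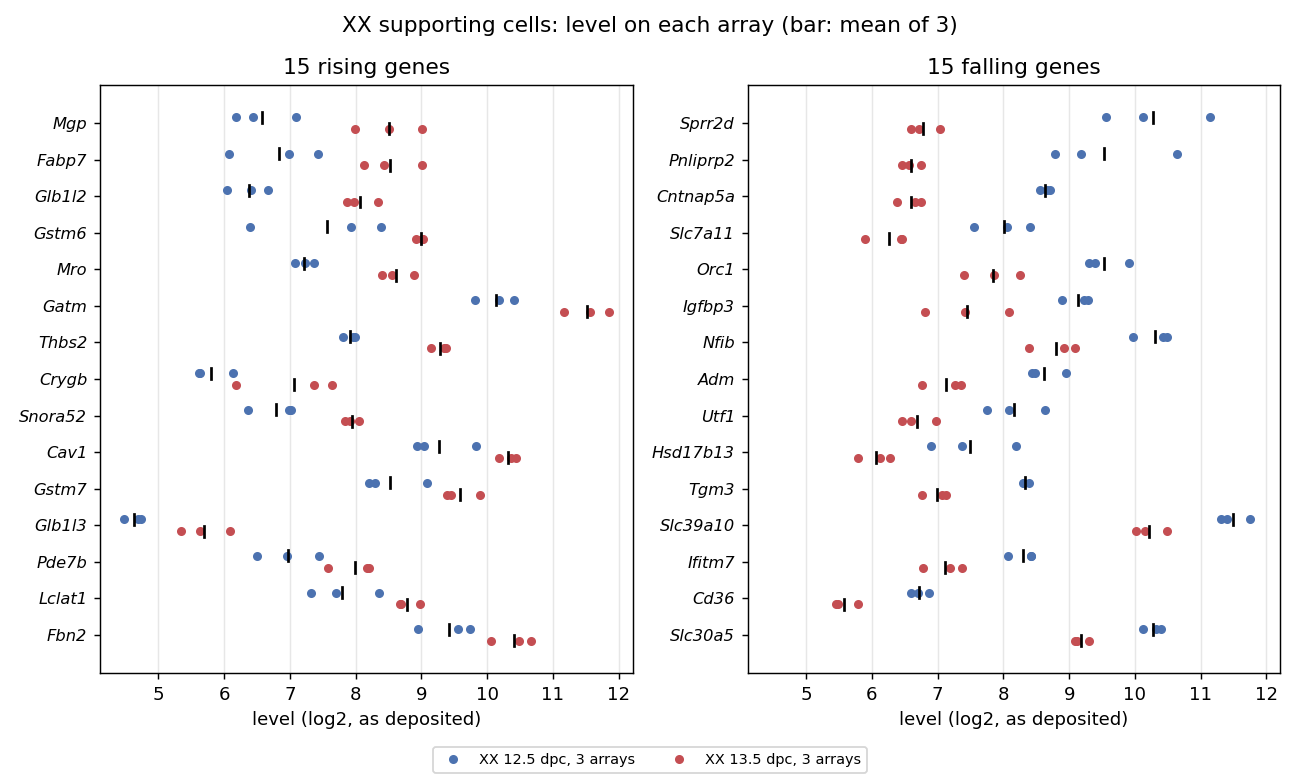
Level of the 15 genes with the largest rises and the 15 with the largest falls on each of the 6 arrays (log2, as deposited); blue points are the 3 arrays at 12.5 dpc, red points the 3 at 13.5 dpc and black bars the means. The stages do not overlap for any of these genes, and the widest gap is that of Sprr2d, from 9.56 or above to 7.03 or below.

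Sprr2d fell most, followed by Pnliprp2 and Cntnap5a. Sprr2d, a small proline-rich protein of the cornified envelope, read 9.56, 11.14 and 10.12 at 12.5 dpc and 6.59, 7.03 and 6.72 at 13.5 dpc. All 3 later arrays lay more than 2 log2 units below the lowest earlier one, and the change was -3.49 (SE 0.26, adjusted p = 3.99e-08). The other 7 measured Sprr2 genes read at means of 5.54 or lower at both stages and none passed the test, with changes from -0.26 to -0.06. Probes of such near copies may read more than 1 of them. Pnliprp2, a pancreatic lipase-related enzyme that also cleaves galactolipids, went from 8.78, 9.19 and 10.64 to 6.74, 6.47 and 6.56, a change of -2.95 (SE 0.36, adjusted p = 0.000109). Its spread was wide at 12.5 dpc and narrow at 13.5 dpc. Pnliprp1, its relative, changed by -0.88 (SE 0.22, adjusted p = 0.0725, or 0.0492 with row sets aligned). Tgm3, a transglutaminase that cross-links proteins of the cornified envelope, fell from 8.40, 8.31 and 8.31 to 7.13, 6.76 and 7.07, by 1.35 on the log2 scale (SE 0.19, adjusted p = 0.000851). Cntnap5a, a cell adhesion molecule of the neurexin superfamily, fell from 8.55, 8.66 and 8.71 to 6.38, 6.65 and 6.75. With little spread within a stage, its change of -2.04 (SE 0.15) had an adjusted p of 3.99e-08.

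The bases before the Sprr2d start (RefSeq, GRCm38.p6, chr3:92338990-92339139, plus strand, 5′ to 3′) are shown because this gene had the largest change. Capitals mark TATAAA and the CCAAT of the opposite strand, which share 1 base.
Sprr2d: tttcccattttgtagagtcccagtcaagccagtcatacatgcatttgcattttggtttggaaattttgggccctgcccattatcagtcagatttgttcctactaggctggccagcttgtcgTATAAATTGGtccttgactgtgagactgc
The TATAAA run lies 29 to 24 bases before the start.

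Among the named falls were the transporters Slc7a11, Slc39a10 and Slc30a5, the receptor Cd36 and the lipid droplet enzyme Hsd17b13. Of 19 sterol and fatty acid genes 0 passed by limma, against 0.502% of all genes, so that count says little. Slc7a11, the cystine and glutamate exchanger that supplies cysteine for glutathione, read 8.05, 8.41 and 7.55 and then 5.90, 6.44 and 6.46, a change of -1.74 (SE 0.20, adjusted p = 9.2e-05). Slc39a10, a zinc importer, fell from 11.39, 11.75 and 11.31 to 10.48, 10.15 and 10.02, by 1.27 on the log2 scale (SE 0.19, adjusted p = 0.00137) and changed by -0.87 with row sets aligned (adjusted p = 0.0233). Slc30a5, which moves zinc into the secretory pathway, fell from 10.31, 10.40 and 10.12 to 9.13, 9.10 and 9.30, a change of -1.10 (SE 0.18, adjusted p = 0.00286). The stages were apart for both zinc transporters. Cd36, a fatty acid and lipoprotein receptor, read 6.87, 6.70 and 6.59 and then 5.78, 5.45 and 5.48, a change of -1.14 (SE 0.18, adjusted p = 0.002). With the germ cell arrays in the fit Slc30a5 and Cd36 no longer passed (0.0816 and 0.0955). Both passed when XX germ cells at 12.5 dpc replicate 3 were left out of that fit. Hsd17b13, a lipid droplet dehydrogenase, changed by -1.42 (SE 0.25, adjusted p = 0.00846), a call lost without replicate 2 of either stage (0.0685 and 0.0845). Glul, glutamine synthetase, changed by -0.97 (SE 0.17, adjusted p = 0.00756) and Maoa, monoamine oxidase A, by -0.99 (SE 0.17, adjusted p = 0.00512), or -0.69 with row sets aligned (adjusted p = 0.00521). Maob, the neighbour of Maoa on the X chromosome, changed by -1.15 (SE 0.22, adjusted p = 0.0142, or 0.0637 with row sets aligned). Glul, Maoa and Maob were chosen after their values were seen.

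Slc7a11 is known to be induced by amino acid shortage through paired response elements near its start, so the bases there are shown (RefSeq, GRCm38.p6, chr3:50443614-50443763, minus strand, 5′ to 3′). Capitals mark TGATGNAA on either strand, the letters of the amino acid response element.
Slc7a11: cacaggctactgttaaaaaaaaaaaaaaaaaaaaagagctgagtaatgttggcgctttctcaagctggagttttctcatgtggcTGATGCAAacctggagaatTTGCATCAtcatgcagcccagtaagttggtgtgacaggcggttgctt
The 2 matches end 59 and 40 bases before the start. Such a run lay in 2.77% of the promoters of the 15614 tested genes, in 4 of the 59 fallen genes with a listed promoter and in 0 of the 20 risen ones. Genes that share this control in other cells are set beside it. Asns, asparagine synthetase, changed by -0.80 (adjusted p = 0.10), Trib3 by -0.28 (0.52), Chac1 by -0.30 (0.53) and Atf4, the factor that binds the element, by 0.07 (0.89).

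Of the DNA replication genes, Orc1 fell and the other 27 measured did not pass the test, which 0.502% of all genes did. Orc1, the largest subunit of the origin recognition complex that marks replication origins, read 9.40, 9.90 and 9.30 at 12.5 dpc and 7.86, 7.40 and 8.25 at 13.5 dpc. The highest later array was more than 1 log2 unit below the lowest earlier one, and the change was -1.70 (SE 0.23, adjusted p = 0.000472). The median change of the 28 genes was -0.34, or -0.17 with row sets aligned, against -0.13 and -0.01 over all genes. Orc6, another subunit, changed by -0.80 (SE 0.21, adjusted p = 0.107), or -0.49 with row sets aligned (0.33). Orc2 to Orc5 changed by -0.10 to 0.13 as deposited and by 0.18 to 0.25 aligned, so the signs of Orc2 and Orc3 turned. Cdc6, which loads the helicase with ORC1, changed by -0.59 (adjusted p = 0.16) and the helicase subunits Mcm2 to Mcm7 by -0.58 to -0.22, none past the test. Lig1, the ligase that joins Okazaki fragments, was in none of the lists and fell by 0.85 (SE 0.19, adjusted p = 0.0386). It was named after its values were seen.

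The bases before the Orc1 start are shown for their match to the site of E2F factors, which drive genes of DNA synthesis (RefSeq, GRCm38.p6, chr4:108579304-108579453, plus strand, 5′ to 3′). Capitals mark TTTNNCGC read from the opposite strand, and CCAAT on either strand.
Orc1: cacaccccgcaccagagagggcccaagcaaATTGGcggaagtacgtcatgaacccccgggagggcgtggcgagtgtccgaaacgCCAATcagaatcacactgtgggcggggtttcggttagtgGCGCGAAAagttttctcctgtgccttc
The E2F run lies 27 to 20 bases before the start. It was in 5.58% of all 15614 promoters and in 5 of 59 (8.47%) of those of fallen genes.

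Listed cell cycle genes outside replication did not pass the test. Since 0.502% of all genes passed, 0 calls in lists of this size say little. The 26 measured mitosis genes had 0 calls by limma and a median change of -0.35 (-0.15 with row sets aligned), against -0.13 (-0.01) over all genes. The 13 genes of the G1 cyclin and kinase list had a median of -0.31 (-0.09 aligned). Every 13.5 dpc array lay below in 3 of the 26 and 5 of the 13, against 12.9% of all genes. Mki67, the proliferation antigen Ki-67, read 7.54, 6.19 and 6.07 and then 6.09, 6.39 and 6.10, so that 12.5 dpc replicate 1 stood alone and the other 5 arrays overlapped. Top2a, topoisomerase II alpha, showed the same layout with 8.82, 7.48 and 7.51 and then 7.51, 6.92 and 7.46, a change of -0.64 (SE 0.25, adjusted p = 0.347). Cdk1, the mitotic kinase, changed by -0.98 (SE 0.25, adjusted p = 0.0827) with no overlap. Without 12.5 dpc replicate 1 the change of Mki67 was 0.06 (adjusted p = 0.939). Of 14 inhibitors of the cell cycle 0 passed. Cdkn1b, the inhibitor p27 that rises as pregranulosa cells stop dividing, read 12.27, 12.34 and 12.37 and then 12.22, 11.66 and 12.17, and its sign differed between scales (-0.31 as deposited, 0.09 aligned). Gadd45g changed by -0.78 (SE 0.19, adjusted p = 0.0725).

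Insulin-like growth factor genes held 3 of the falls, among 13 measured, against 0.376% of all genes, with 0 rises and a median change of -0.36 (-0.21 with row sets aligned). Igfbp3, which binds the growth factors in the circulation and in tissue, read 9.22, 9.29 and 8.89 at 12.5 dpc and 7.42, 6.82 and 8.09 at 13.5 dpc. Its later arrays were spread but all below the earlier ones, and the change was -1.69 (SE 0.31, adjusted p = 0.0103). Igfbp2 read 9.53, 9.42 and 9.92 and then 8.99, 8.09 and 8.39, a change of -1.13 (SE 0.25, adjusted p = 0.0367). The growth factor Igf1 read 9.87, 9.46 and 9.34 and then 8.55, 8.49 and 8.96, a change of -0.89 (SE 0.20, adjusted p = 0.0386). With row sets aligned Igfbp2 and Igf1 changed by -0.87 and -0.66 and were no longer past the test (adjusted p 0.055 and 0.242), nor with centred arrays (0.0874 and 0.0781). Igfbp3 was lost without replicate 2 of either stage (0.0732 and 0.118), Igfbp2 without any 12.5 dpc array or 13.5 dpc replicate 2 or 3 (0.0672 to 0.27), and Igf1 without 12.5 dpc replicate 1 or 2 or 13.5 dpc replicate 1 or 2 (0.112 to 0.255). With array weights Igfbp3, Igfbp2 and Igf1 were lost too (0.122, 0.0702 and 0.154). Igfbp5 changed by -1.09 (SE 0.25, adjusted p = 0.0548, or 0.0291 aligned). The receptor Igf1r changed by 0.12 (adjusted p = 0.81) and the growth factor Igf2 by -0.18 (0.63).

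The other named falls were those of Nfib, Adm, Utf1, Ifitm7 and Spred2. Nfib, a transcription factor of the nuclear factor I family, read 10.43, 9.98 and 10.49 and then 9.09, 8.40 and 8.93, a change of -1.50 (SE 0.20, adjusted p = 0.000472). Adm, the vasodilator peptide adrenomedullin, read 8.48, 8.43 and 8.95 and then 7.35, 7.27 and 6.76, a change of -1.49 (SE 0.20, adjusted p = 0.000377). Utf1, a chromatin factor of pluripotent and germ cells, read 7.75, 8.63 and 8.09 and then 6.98, 6.46 and 6.60, a change of -1.48 (SE 0.24, adjusted p = 0.00294). Nfib, Utf1 and Adm no longer passed with the germ cell arrays in the fit (0.585, 0.272 and 0.126). They passed when XX germ cells at 12.5 dpc replicate 3 were left out of that fit. The 12 germ cell markers had a median change of 0.22 with 0 past the test, and their part in the Utf1 change was not tested. Ifitm7, of the interferon-induced transmembrane family, changed by -1.19 (SE 0.17, adjusted p = 0.000825), or -0.89 with row sets aligned (0.00848), and Ifitm1, Ifitm2 and Ifitm3 by -0.24, -0.39 and -0.47 with none past the test. Spred2, an inhibitor of RAS and MAP kinase signalling, was the called member of 16 genes of that pathway, against 0.502% called over all genes. Its change was -0.99 (SE 0.22, adjusted p = 0.0367). It was lost without 12.5 dpc replicate 2 or 3 or 13.5 dpc replicate 2 or 3 (0.0867 to 0.192), when its probe sets were averaged (0.271), with centred arrays (0.122) and after quantile normalisation (0.0795). The list's median change was -0.07.

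None of the 17 pregranulosa regulators passed the test as deposited, which 0.502% of all genes did, and their median change was -0.18 (-0.05 with row sets aligned). In 1 of them every 13.5 dpc array lay above every 12.5 dpc array and in 4 every one lay below. Over all genes these shares were 1.43% and 12.9%. The arrays of the other 12 overlapped. Fst, the activin antagonist follistatin, read 12.52, 12.18 and 11.98 and then 11.77, 11.93 and 12.16, a change of -0.27 (SE 0.16). Wnt4, the ligand of ovarian development, changed by -0.58 (SE 0.20, adjusted p = 0.285) and Rspo1, which amplifies WNT signals, by -0.22 (SE 0.19, adjusted p = 0.658). Both overlapped between stages. Irx3, a homeobox gene of granulosa cells, changed by -0.00 (SE 0.21), or by 0.28 (adjusted p = 0.652) without 12.5 dpc replicate 1. Bmp2, a ligand downstream of WNT4, read 10.33, 10.12 and 10.58 and then 9.84, 9.39 and 9.77 without overlap, a change of -0.68 (SE 0.18, adjusted p = 0.112). Lgr5, the R-spondin receptor, read 9.51, 9.17 and 9.45 and then 9.87, 9.69 and 9.99. Its change of 0.48 (SE 0.20, adjusted p = 0.377) was 0.78 and past the test with row sets aligned (adjusted p = 0.0329). Lgr4, a second R-spondin receptor, changed by -0.76 (SE 0.18, adjusted p = 0.0543). The WNT targets Axin2 and Lef1 changed by 0.42 (adjusted p = 0.369) and -0.35 (0.468), each without overlap.

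Genes shared with the earlier bipotential gonad were lower by a median of 0.31 on the deposited scale and 0.14 on the aligned one. The test was passed by 0 of these 12 genes and by 0.502% of all genes. Lhx9, a LIM homeobox gene, read 11.31, 10.84 and 10.47 and then 9.95, 10.03 and 10.37, a change of -0.75 (SE 0.21, adjusted p = 0.147). Nr0b1 (DAX1) read 9.24, 9.23 and 9.29 and then 8.50, 8.42 and 8.40, a change of -0.81 with an adjusted p of 0.198. The spread of Nr0b1 came from other groups, and with only the 6 arrays compared in the fit its adjusted p was 0.0245. Wt1, Gata4 and Nr5a1, which build the gonadal ridge, changed by -0.22, -0.21 and -0.31 with overlapping arrays, and Wt1 by 0.02 after quantile normalisation. Kitl, the ligand of the germ cell receptor KIT, changed by -0.44 (adjusted p = 0.342).

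Foxl2os, the RNA transcribed away from Foxl2, was bright where Foxl2 was dim. It read 10.46, 10.43 and 10.34 at 12.5 dpc and between 10.99 and 11.24 at 13.5 dpc, without overlap, a change of 0.67 (SE 0.16, adjusted p = 0.0725) that passed with row sets aligned (0.72, adjusted p = 0.00592). Foxl2 read 6.24, 6.51 and 6.33 and then 6.57, 6.05 and 6.24, a change of -0.07 whose sign turned with row sets aligned (0.13, adjusted p = 0.848). Levels of different probe sets are not comparable, and the Foxl2 values say little about its RNA if its probes respond poorly, which was not tested. Foxl2os was chosen after its values were seen. RefSeq starts of the 2 genes lie 297 bases apart on opposite strands. The 250 bases before the Foxl2os start (GRCm38.p6, chr9:98955311-98955560, minus strand, 5′ to 3′) lie between them and are shown because both genes start there. They held none of the 9 motifs searched, so no letter is in capitals.
Foxl2os: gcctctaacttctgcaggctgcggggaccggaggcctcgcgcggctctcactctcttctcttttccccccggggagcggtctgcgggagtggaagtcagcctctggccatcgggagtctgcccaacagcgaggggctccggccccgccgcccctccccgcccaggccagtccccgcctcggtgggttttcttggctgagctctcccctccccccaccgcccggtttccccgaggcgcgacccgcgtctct

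Most of the other lists gave 0 calls by limma on deposited values, where 0.502% of all genes passed. The 22 TGF-beta family ligands and receptors had a median change of -0.16, their 15 antagonists and targets -0.21, the 18 Notch genes -0.12 and the 9 steroid synthesis genes -0.14. Hes1, a Notch target, changed by 0.68 (SE 0.27, adjusted p = 0.349). Of 14 measured glycolysis genes, 8 had every 13.5 dpc array below every 12.5 dpc array, a share to be read against 12.9% of all genes. Their median change was -0.32, or -0.16 with row sets aligned. Hk1, hexokinase, changed by -0.66 (adjusted p = 0.066), Pgk1 by -0.72 (0.12) and Ldha, lactate dehydrogenase, by -0.54 (0.19). The dissociation stress list, which holds genes that respond to enzymatic digestion, was the one list with a median above 0, at 0.25 (0.30 aligned), and 0 of its 14 genes passed. Atf3 changed by 0.93 (adjusted p = 0.37) and Hspa1a by 0.76 (adjusted p = 0.34). The called member of 10 germ cell signal genes was Igf1, described above, with a list median of -0.20. In these sorted pools fewer cells of a type and less RNA per cell cannot be told apart.

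**Figure D3:**
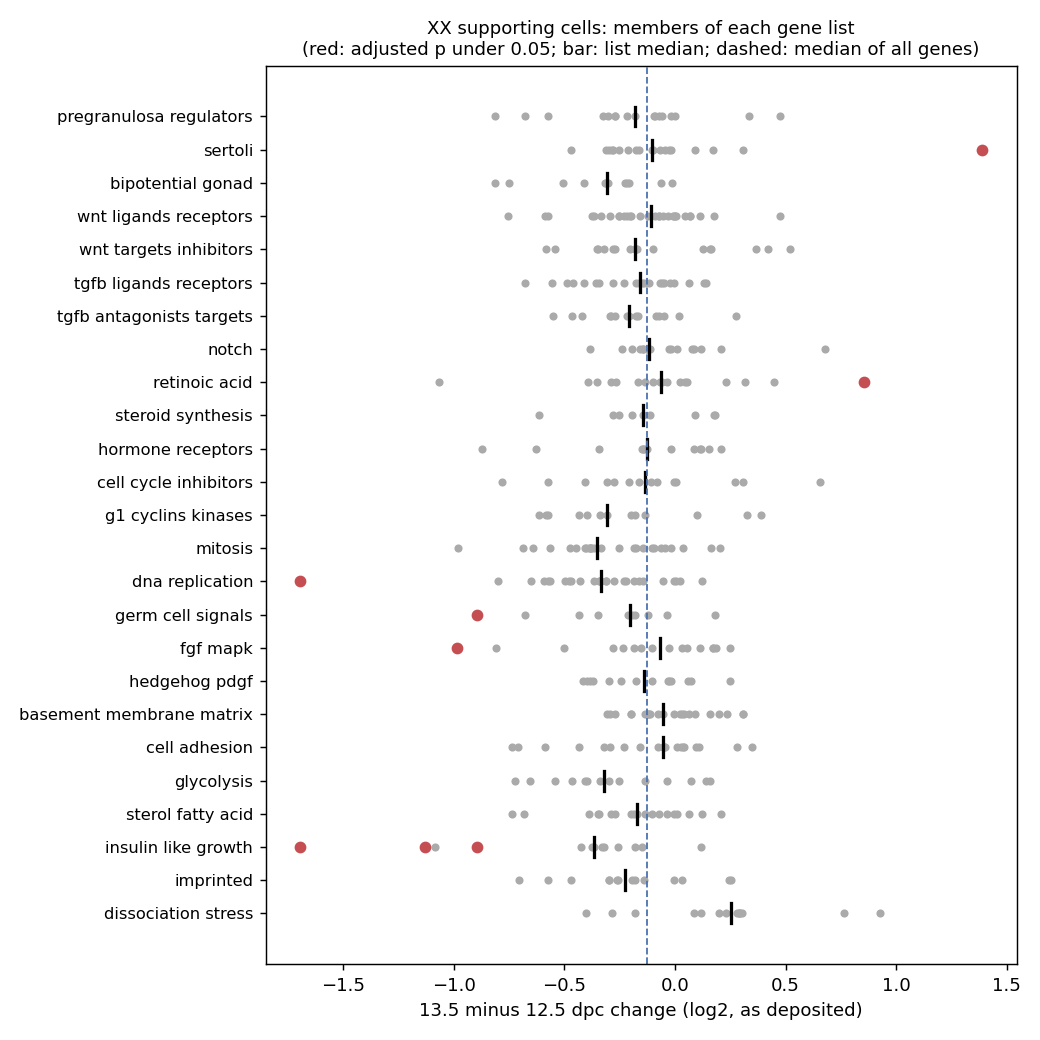
Change from 12.5 to 13.5 dpc (log2, as deposited) of each measured member of 25 gene lists in XX supporting cells; red points had an adjusted p under 0.05, black bars are list medians and the dashed line is the median of all genes (-0.13). Red points appear in 6 lists only, and the insulin-like growth list holds 3 of them.

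The step before, from 11.5 to 12.5 dpc, is set beside the later one for the same genes. It shares the 12.5 dpc arrays, so a high or low 12.5 dpc array pushes both steps in opposite directions and no overlap is read from them. That step had 697 calls (3.5%), 553 of them rises (2.77%). The split depended on the scale here too, with 553 rises and 314 falls aligned, 366 and 215 with centred arrays, and 304 and 275 after quantile normalisation. The count was 454 without 11.5 dpc replicate 1, 443 without 11.5 dpc replicate 3, 430 without 12.5 dpc replicate 1, 462 without 12.5 dpc replicate 2 and 1222 without 12.5 dpc replicate 3. Thbs2 rose by 1.68 and then by 1.36, Gatm by 1.96 and then 1.39, and Gstm6 by 2.17 and then 1.42. Fbn2 (2.22 and 0.99), Aldh1a1 (2.10 and 0.86) and Cav1 (1.42 and 1.06) had the larger change in the first step. All 6 of these first steps passed the test (adjusted p at most 0.000217). Mgp, Glb1l2 and Mro did not pass the test in the first step, with changes of 0.78 (adjusted p = 0.113), 0.46 (0.165) and 0.25 (0.662). Among the falls, Pnliprp2 changed by -2.53 (adjusted p = 0.0001) and then by -2.95, and its arrays at 11.5 dpc read 11.97 to 12.23. Tgm3 changed by -2.22 (adjusted p = 1.32e-07) and then by -1.35. Sprr2d, Slc7a11 and Nfib changed by -0.66 (adjusted p = 0.212), -0.27 (0.637) and -0.17 (0.802) in the first step, so their called falls lay in the later one. Lclat1 fell by 1.05 (adjusted p = 0.00418) before its rise.

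**Figure D4:**
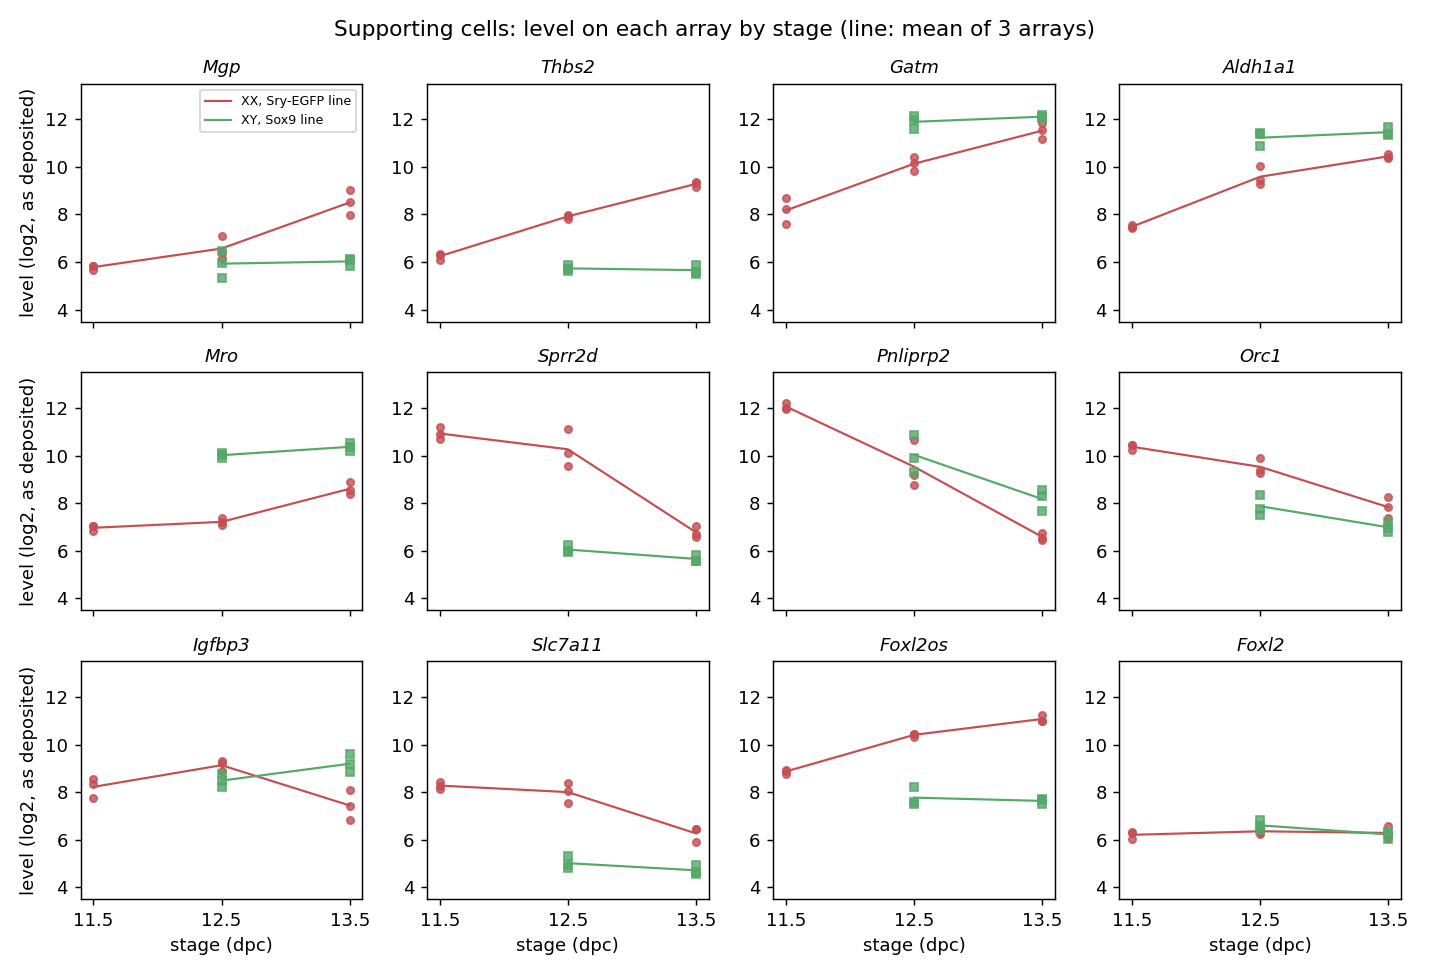
Level of 12 genes on each supporting cell array by stage (log2, as deposited), with XX arrays of the Sry-EGFP line in red and XY arrays of the Sox9 line in green, and lines through the means of 3 arrays. Thbs2, Gatm and Aldh1a1 are higher at each XX stage than at the one before, the XX arrays of Mgp and Mro are highest at 13.5 dpc, and Sprr2d stays at 9.56 or above until 12.5 dpc and is at 7.03 or below at 13.5 dpc.

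The same step in XY supporting cells was compared to ask whether a change differed between the sexes. Sex and reporter line cannot be told apart here, since the XY cells came from the Sox9 line on another background. The XY step had 273 calls (1.37%), and the count was 1570 without XY 12.5 dpc replicate 2 and 95 to 120 without XY 12.5 dpc replicate 1 or any one of the XY 13.5 dpc arrays. The change differed between XX and XY, by a test of the difference itself, in 39 genes (0.196%), and in 81 (0.406%) with row sets aligned. In 19 of the 39 the XX change was above the XY change (0.0953%) and in 20 below it (0.1%), and 18 of each (0.0903% and 0.0903%) passed on both scales. The count was 63 without XY 12.5 dpc replicate 2, and 18 to 25 without XX 13.5 dpc replicate 2 or any one of the XY 13.5 dpc arrays.

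Several of the named genes changed in XX cells and little in XY cells. Sprr2d stood at 5.93 to 6.25 in the XY arrays at 12.5 dpc and at 5.57 to 5.85 at 13.5 dpc, low at both stages, and its changes differed by -3.10 (SE 0.36, adjusted p = 0.000163). Cntnap5a was likewise low in XY cells (5.26 to 5.57), with a difference of -1.92 (SE 0.21, adjusted p = 0.000161). Thbs2 read 5.52 to 5.88 in XY cells, with a difference of 1.44 (SE 0.20, adjusted p = 0.00113), and Glb1l2 5.68 to 6.04, with a difference of 1.62 (SE 0.24, adjusted p = 0.00159). The XY values of Sprr2d, Cntnap5a, Thbs2 and Glb1l2 all lay below the array medians, which were 6.70 or above. A fall in XY cells had little room to show at such levels. Igfbp3 fell in XX cells and changed by 0.71 (adjusted p = 0.207) in XY cells, with a difference of -2.40 (SE 0.44, adjusted p = 0.0192) that was lost without XX 12.5 dpc replicate 2, XX 13.5 dpc replicate 2, XY 12.5 dpc replicate 1 or XY 13.5 dpc replicate 3 (0.0653 to 0.0693). For Mgp the difference was 1.84 (SE 0.36, adjusted p = 0.0323), and it passed in 3 of 12 fits that each left out 1 array. It was lost without XX 12.5 dpc replicate 2 or 3, XX 13.5 dpc replicate 1 or 2, XY 12.5 dpc replicate 2 or 3 or any one of the XY 13.5 dpc arrays (0.0697 to 0.132).

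In other genes the XY cells changed and the XX cells did not pass the test. Ifitm1 fell by 1.90 in XY and changed by -0.24 in XX cells, Lrp4 fell by 1.77 against -0.14, and Nell1, a secreted matrix protein, fell by 1.61 against 0.06. The XX change was above the XY change in each (adjusted p of the difference 0.00113, 0.00768 and 0.00768). Fam83d, a spindle protein, fell by 0.89 in XY cells (adjusted p = 0.031) and changed by 0.85 in XX cells (adjusted p = 0.0688). The transcript 4930486L24Rik rose by 2.10 in XY cells, while in XX cells it read 5.20 to 5.63 at both stages. Cyp11a1, the enzyme of the first step of steroid synthesis, rose by 1.19 in XY (adjusted p = 0.0179) and changed by -0.62 in XX cells (0.369), and Cyp17a1, the next enzyme towards androgens, rose by 1.68 in XY and changed by 0.09 in XX cells. Both are markers of steroidogenic cells. The array medians of the 5 such markers were 5.59 to 6.23 in XY cells at 12.5 dpc and 7.30 to 7.76 at 13.5 dpc, and the part of such cells in the XY samples was not tested. The Cyp11a1 difference passed in 3 of 12 fits that left out an array. It was lost without XX 12.5 dpc replicate 1 or 3, any one of the XX 13.5 dpc arrays, XY 12.5 dpc replicate 1 or 3, or XY 13.5 dpc replicate 1 or 2 (0.0619 to 0.129), and after quantile normalisation (0.0873).

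**Figure D5:**
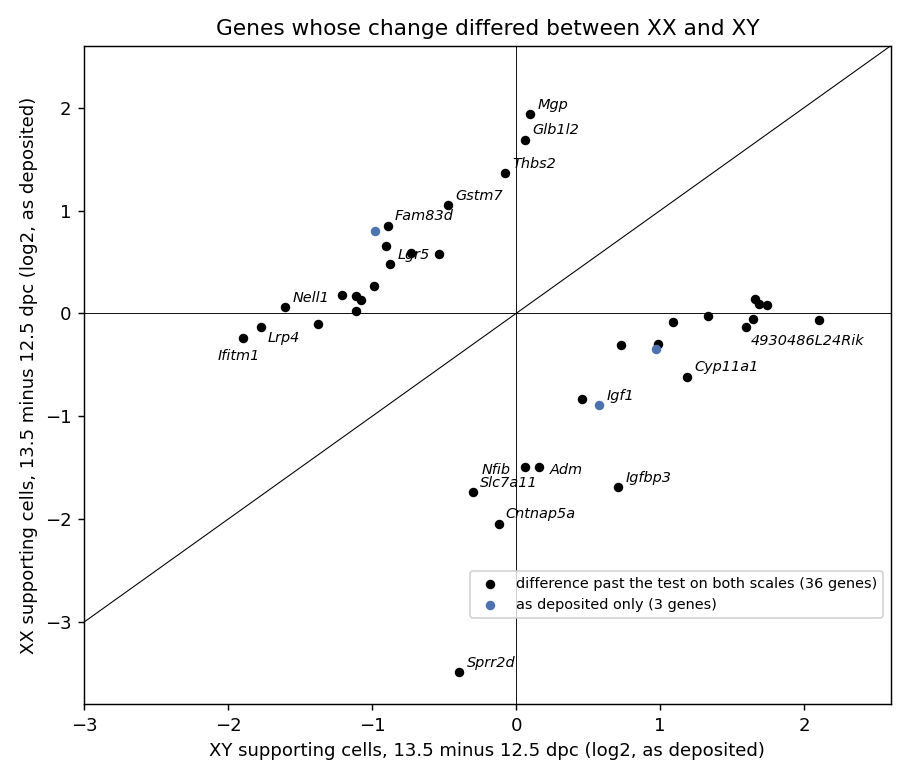
Change from 12.5 to 13.5 dpc (log2, as deposited) in XY (horizontal) and XX (vertical) supporting cells for the 39 genes whose changes differed by test; black points passed on both scales and blue points as deposited only, and the diagonal marks equal change. Mgp, Glb1l2 and Thbs2 at the top and Sprr2d, Cntnap5a and Slc7a11 at the bottom lie between -0.40 and 0.10 on the XY axis, while Ifitm1, Lrp4 and 4930486L24Rik lie between -0.24 and -0.06 on the XX axis.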

How the data were processed

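Expression was measured on Affymetrix Mouse Gene 1.0 ST arrays. The authors deposited log2 values, and the submitters' processing notes name RMA without a version. The table held 35557 probe sets. Of these, 21789 had 1 gene symbol in the platform annotation, and where a gene had more than 1 (999 genes) the brightest was used, giving 19938 genes. No filter on low values was applied. The 18 supporting cell arrays, in 6 groups of 3, were fitted as group means with limma 3.58.1 in R 4.3.3 (12 residual degrees of freedom). Two-sided p-values were adjusted by Benjamini-Hochberg over all genes. Germ cell arrays were left out because 1 of them, XX 12.5 dpc replicate 3, carries stromal and XX supporting cell genes. The script was tested on simulated data. Named genes were the 15 largest rises and 15 largest falls past the test on both scales and apart in all arrays, up to 5 called members per list, the defining genes, and the 5 largest differences between XX and XY in each direction. Members and lists were chosen with earlier results of these data known. The number of arrays limits the precision. Figures were drawn with matplotlib 3.10.9 under Python 3.11.15.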

Additional observations from a re-analysis of the deposited data

Results flagged for a closer look

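Each gene here stood out because its change from 12.5 to 13.5 dpc differed between XX and XY supporting cells by limma's test of the difference, where sex and reporter line cannot be told apart. The XX change minus the XY change was above 0 for Mgp (1.84), Glb1l2 (1.62), Thbs2 (1.44) and Gstm7 (1.53), which rose in XX cells. It was below 0 for Sprr2d (-3.10), Igfbp3 (-2.40), Cntnap5a (-1.92), Adm (-1.65), Nfib (-1.56), Igf1 (-1.47) and Slc7a11 (-1.44), which fell in XX cells. For Lgr5 it was 1.35, for Fam83d 1.74, for Nell1 1.67, for Ifitm1 1.66 and for Lrp4 1.64, and these 5 fell in XY cells. For 4930486L24Rik it was -2.17 and for Cyp11a1 -1.80, and both rose in XY cells. Sprr2d, Cntnap5a, Thbs2 and Glb1l2 read below the array medians in XY cells at both stages, where a fall has little room to show. Groups of 3 arrays were not searched for single outlying arrays.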

How the results depend on the processing

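Of the 65 named results run under the alternatives, none that passed the test changed direction. For the XX step, 100 genes passed as deposited, 124 with row sets aligned, 85 with centred arrays and 102 after quantile normalisation. With only the 6 arrays 143 passed, and with array weights 80. All 36 arrays in the fit gave 20 genes, but 35 arrays, without XX germ cells at 12.5 dpc replicate 3, gave 108. Fits that left out 1 array gave 32 to 154. For the step from 11.5 to 12.5 dpc, 697 became 295 with 36 arrays, 404 with only the arrays compared and 430 to 1222 with an array left out. For the XY step, 273 became 145 when centred, 130 after quantile normalisation, 73 with 36 arrays, 659 with array weights, 153 with row sets aligned and replicate block, and 95 to 1570 with an array left out. For the difference of XX and XY, 39 became 81 aligned, 13 with 36 arrays, 60 aligned with the replicate block and 18 to 63 with an array left out. The labels do not say whether replicate numbers pair the arrays, and deviations from means of only 3 arrays cannot settle it. Those of same-numbered XX arrays at 12.5 and 13.5 dpc correlated at -0.22, -0.07 and -0.05 (0.01, -0.07 and 0.01 with row sets aligned). As deposited, no array correlated best with its own number. A block for replicate number gave 107 genes in the XX step, 95 of them shared with the 100. It gave 718 in the step before, 235 in the XY step and 42 for the difference of XX and XY. Of 34 called named genes, 13 passed under every alternative run: Mgp, Glb1l2, Glb1l3, Mro, Thbs2, Sprr2d, Pnliprp2, Cntnap5a, Slc7a11, Orc1, Tgm3, Slc39a10 and Ifitm7. Over these results, 1015 alternatives kept the side of the threshold, and any turn of sign among them was in an uncalled gene and within its SE. In 9 more the sign of an uncalled gene turned by more than its SE. Another 2 passed where the main fit did not, and 134 fell short of the threshold. With all 36 arrays the differences of XX and XY for Mgp, Nell1 and Sprr2d were no longer past the test (adjusted p 0.326, 0.0775 and 0.0775). They passed with the 35 arrays. Array weights lost 19 named results. In the XX step these were Fabp7, Gatm, Gstm6, Gstm7, Crygb, Snora52, Cav1, Pde7b, Lclat1, Fbn2, Aldh1a1, Igf1, Igfbp2, Igfbp3 and Spred2. Among the differences they were Mgp (0.119), Fam83d (0.0908), Igfbp3 (0.381) and Cyp11a1 (0.28). The cause of these shifts was not tested. Aligning the row sets together with the replicate block was chosen after seeing the data. With 3 arrays a stage, small changes stay below the test.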
